A study of Homo sapiens with 4 samples.

Results

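The genes PRDM1, IRF4, XBP1, POU2AF1, ELL2, IKZF1, IKZF3 and CRBN were taken by symbol from the 62069 genes counted in KMS11, an established multiple myeloma cell line with the t(4;14) translocation. The first 5 are factors of the plasma cell state, and the other 3 are cereblon (CRBN) with the 2 Ikaros factors that it targets in the presence of thalidomide analogs. All 8 had counts in every library and passed the filter on low counts, so none is left out below. Cells were infected with lentivirus in the presence of polybrene at 10 µg/mL, for 2 libraries with a control shRNA and for another 2 with one directed at NSD2, and were collected 96 h after the shRNA, 72 h of it in fresh medium. NSD2 is the histone H3 lysine 36 methyltransferase gene that the translocation joins to the immunoglobulin heavy chain locus. The labels name no thalidomide analog among the treatments, and whether each library had its own culture is not stated. P-values therefore measure only the spread between these libraries, which may be technical.

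Plasma cells are the antibody-secreting end stage of the B lineage. PRDM1 encodes BLIMP1, a repressor that shuts down the B cell program, IRF4 encodes a factor on which plasma and myeloma cells depend, and XBP1 encodes a factor that enlarges the secretory pathway after IRE1 splices its mRNA. POU2AF1 encodes a coactivator that binds octamer factors on DNA, and ELL2 encodes an elongation factor that favours the secreted form of the immunoglobulin heavy chain mRNA. Cereblon is a substrate receptor of the DDB1-CUL4 ubiquitin ligase. Thalidomide analogs bind it and bring IKZF1 and IKZF3 to the ligase, and loss of these factors lowers IRF4 in myeloma cells.

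The libraries held 46728940 to 55059566 counted fragments, and mitochondrial genes took 5.82% to 6.81% of them, with the highest share in knockdown library 2. NSD2 gave 1121 and 1471 CPM (counts brought to a common depth by scaling) under the control shRNA, against 919 and 1156 CPM in the libraries labelled NSD2 knockdown. The groups overlapped, and its log2 fold change of -0.32 (95% interval -0.66 to 0.02) had an adjusted p of 0.244 in edgeR's quasi-likelihood test, so knockdown libraries below means the libraries so labelled. NSD2 was called lower by edgeR with no filter on low counts (adjusted p 0.0173), a fit whose p-values leave out a gene's own spread. The value was -0.50 when either control library 1 or knockdown library 2 was left out. Its log2 fold change was -0.12 without control library 2, -0.16 without knockdown library 1 and -0.07 with terms for GC content and exonic length. Of 7 plasma cell markers, all were tested, and their summed level was 7200 to 7325 CPM in the control libraries and 6626 to 7223 CPM in the others. Within that list SLAMF7 fell (log2 fold change -1.09, adjusted p 0.000952) and CD38 fell (adjusted p 0.0284, and 0.0525 with robust estimation), from 1.54 and 0.700 CPM to 0.290 and 0.0369 CPM, the last of these being 2 fragments. CD38, a defining plasma cell marker, was thus near 0 in every library. Among B cell markers, CR2 was at 34.6 to 42.3 CPM and MS4A1, CD22 and PAX5 were at 0.435 CPM or less in every library, and the list had sums of 38.4 to 42.9 CPM in the control libraries and 35.2 to 38.1 CPM in the others. Of 5 T cell markers, CD3E was at 2.56 to 4.33 CPM and CD247 at 2.18 to 2.40 CPM, CD3D was at 0, and the sums were 6.002 to 6.79 CPM in the control libraries and 4.94 to 5.12 CPM in the others. The 5 myeloid markers summed to 0.0791 to 0.147 CPM. Epithelial markers summed to 53.8 to 66.3 CPM in the control libraries and to 32.9 to 34.4 CPM in the others. The 3 of the 5 that passed the filter on low counts, KRT18, EPCAM and CDH1, fell (adjusted p of 0.00588, 0.00859 and 0.0248 in edgeR). Of the markers tested, 100% of the epithelial and 28.6% of the plasma cell list were thus lower at an adjusted p below 0.05, against 4.19% of all genes. The part of these markers in the results below was not tested. In RNA from whole cultures, fewer cells of a kind and less RNA per cell cannot be told apart.

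Promoter windows of the 250 bases before a gene's start were read from RefSeq (GRCh38.p14, a later build than the GRCh37 of the counts). They were found for PRDM1, IRF4, XBP1, IKZF1 and CRBN, in 10 windows. XBP1 is shown because a window of it, alone among the 10, holds the ER stress response element. This motif of genes of the unfolded protein response is made of CCAAT and CCACG with 9 free bases between them, and begins 52 bases before the start. Another XBP1 window, at chr22:28800078-28800327, does not hold it. The window shown lies at chr22:28800570-28800819 on the minus strand, and the capitals mark the fixed bases of the element.
XBP1: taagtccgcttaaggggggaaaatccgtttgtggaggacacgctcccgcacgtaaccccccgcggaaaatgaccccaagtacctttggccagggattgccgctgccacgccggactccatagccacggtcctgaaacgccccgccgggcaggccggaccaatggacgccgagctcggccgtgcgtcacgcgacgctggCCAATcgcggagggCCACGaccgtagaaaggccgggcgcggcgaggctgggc
On either strand that element was found in 26 of 35116 windows (0.074%), and in 3 of 38 windows of the IRE1-XBP1 branch genes listed further on, those of HSPA5, PDIA6 and CRELD2. IRF4 is shown as a highly expressed factor whose window, at chr6:391502-391751 on the plus strand, holds TATAAA, in capitals, 32 bases before the start.
IRF4: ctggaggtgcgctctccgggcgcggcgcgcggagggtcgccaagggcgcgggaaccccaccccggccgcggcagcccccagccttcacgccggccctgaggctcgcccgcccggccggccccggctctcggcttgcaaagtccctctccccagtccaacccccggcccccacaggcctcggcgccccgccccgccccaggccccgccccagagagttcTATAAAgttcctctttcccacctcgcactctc
TATAAA occurred in 10.7% of all windows and in 2 of the 10. The octamer ATGCAAAT (1.63% of all windows), the interferon response core of GAAA repeated after 2 free bases (3.02%) and the PRDM1 site, the form of that core with GT as the free bases (0.154%), were in 0 of the 10. The Ikaros core TGGGAA, which 20.8% of all windows hold, was in 3 of the 10. A match is a description of letters and shows no binding.

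Levels per exonic length spread from XBP1, among the most abundant messages of the cell line, down to IKZF1. On the FPKM scale (CPM per kilobase of the deposited exonic length), control means were 317 ± 10.6 for XBP1, 109.8 ± 11.98 for IRF4, 72.1 ± 31.0 for IKZF3 and 46.1 ± 1.36 for POU2AF1 (SD, n = 2). They were 26.5 ± 3.03 for PRDM1, 18.8 ± 0.0537 for ELL2, 4.03 ± 0.133 for CRBN and 1.05 ± 0.148 for IKZF1 (SD, n = 2). Among 13037 protein-coding genes tested, 83 had a higher level than XBP1 and 306 a higher level than IRF4, whereas CRBN stood at percentile 44.0 and IKZF1 at percentile 23.3. With the deposited gene models, the order of the 8 was the same in each of the 4 libraries. IKZF3 and POU2AF1, neighbours in that order, had FPKM of 50.2 and 45.1 in control library 1, 94.1 and 47.0 in control library 2, 47.6 and 40.3 in knockdown library 1 and 45.5 and 44.4 in knockdown library 2. The difference of their control means was below the SD of IKZF3.

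**Figure D1:**
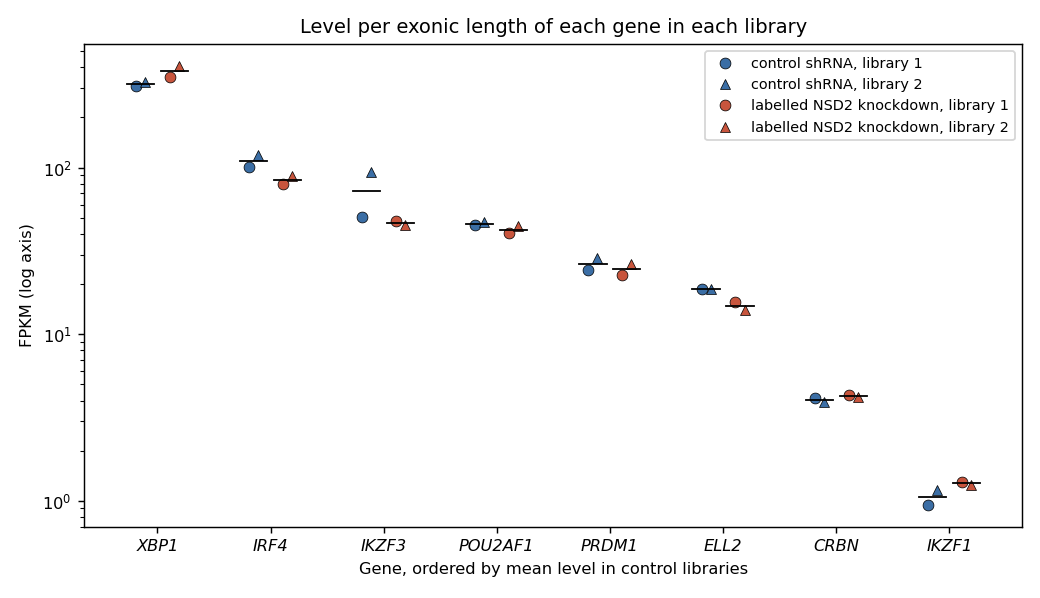
FPKM on a log axis of each gene in each library, ordered by the mean of the control libraries, with a bar at the mean of each group. XBP1 lies between 309 and 407 FPKM and IKZF1 between 0.946 and 1.31 FPKM, and the control libraries of IKZF3 stand apart from each other at 50.2 and 94.1 FPKM.

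Whether these genes depend on NSD2 was asked by setting the libraries labelled NSD2 knockdown against the control libraries. None of the 8 passed an adjusted p of 0.05 in edgeR's quasi-likelihood test, whereas 5.93% of the 17172 genes tested did (299 higher, 1.74%, and 719 lower, 4.19%). With terms for GC content and exonic length, that split was 417 higher and 641 lower. At an unadjusted p below 0.05, 4 of the 8 were called, against 22.5% of all genes: IRF4, ELL2 and IKZF3 were lower (13.1% of all genes) and XBP1 was higher (9.46% of all genes). DESeq2 called IRF4 and ELL2 lower, 2 of 8 against 4.27% of all genes. The groups did not overlap for 7 of the 8, which is 87.5% against 53.2% of all genes. IRF4, POU2AF1, ELL2 and IKZF3 were lower in both knockdown libraries than in either control library (26.2% of all genes), XBP1, IKZF1 and CRBN were higher (27% of all genes), and PRDM1 overlapped. The median log2 fold change of the 8 was -0.11, beside -0.0016 for all genes tested.

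**Figure D2:**
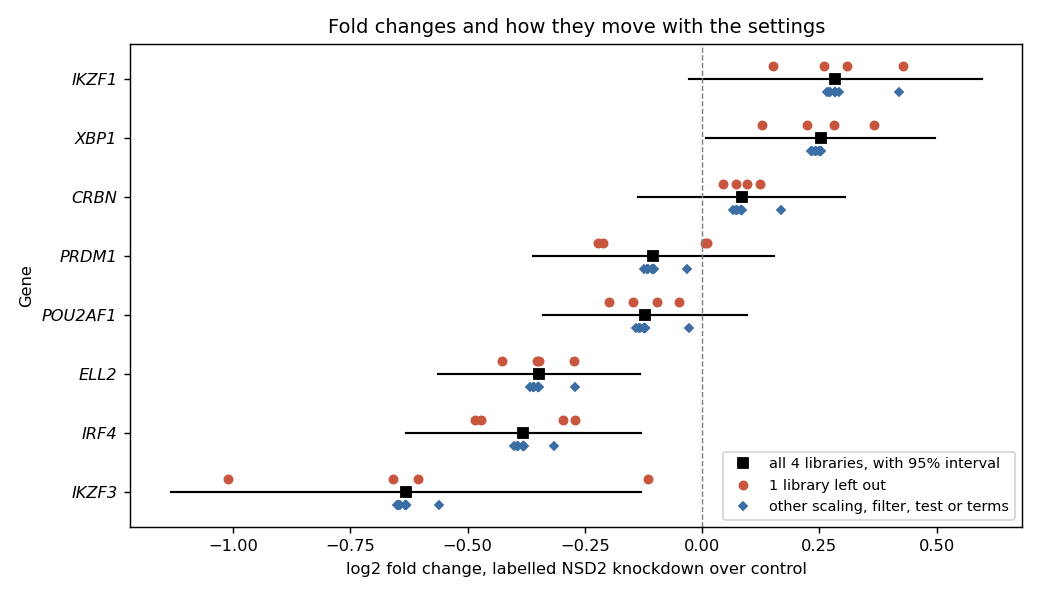
The log2 fold change of each gene, labelled knockdown over control, with its 95% interval (black), beside the values with 1 library left out (red) and under the other scalings, filters, tests and terms (blue). Intervals of IRF4, ELL2, IKZF3 and XBP1 lie to 1 side of 0, and the value of IKZF3 moves from -1.01 to -0.11 with the control library that is left out.

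IRF4 (ENSG00000137265, chromosome 6, 391739 to 411447, plus strand, GRCh37) was lower in both knockdown libraries. It had 598 and 698 CPM in the 2 controls and 469 and 525 CPM in the knockdown libraries. The mean went from 648 ± 70.6 to 497 ± 39.9 CPM (SD, n = 2), a difference of -23.2%. The groups did not overlap, but control library 1 lay nearer to knockdown library 2 than to control library 2. A log2 fold change of -0.38 (SE 0.112, 95% interval -0.63 to -0.13) carried an adjusted p of 0.0810 in edgeR. That p crossed the threshold with DESeq2 (0.0276), with no filter on low counts (0.00395) and without control library 1 (0.0110), and was 0.278 without knockdown library 1.

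ELL2 (ENSG00000118985, chromosome 5, 95220802 to 95297775, minus strand) was also lower in both. Its values were 135.7 and 136.2 CPM in the control libraries and 113 and 101 CPM in knockdown libraries 1 and 2. The control libraries were nearly equal, and both knockdown libraries lay below them, library 2 the lower. The means were 136 ± 0.389 and 107 ± 8.64 CPM (SD, n = 2), a difference of -21.4%, with a log2 fold change of -0.35 (SE 0.0964, 95% interval -0.56 to -0.13) and an adjusted p of 0.0665 in edgeR. ELL2 crossed the threshold with DESeq2 (0.0366) and with no filter on low counts (0.0213), where a gene's own spread is left out. Its log2 fold change was -0.43 without knockdown library 1 and -0.27 without knockdown library 2.

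XBP1 (ENSG00000100219, chromosome 22, 29190543 to 29196585, minus strand), whose promoter window is printed above, had a higher total mRNA level in both knockdown libraries. It measured 937 and 982 CPM with the control shRNA, as opposed to 1054 and 1233 CPM with the other, so the groups did not overlap. Its mean went from 960 ± 32.0 to 1144 ± 127 CPM (SD, n = 2), a difference of 19.2%. Knockdown library 2 was the higher of its group by more than the control libraries differed. Its log2 fold change came to 0.25 (SE 0.109, 95% interval 0.01 to 0.50), with an adjusted p of 0.209 in edgeR. It was 0.13 (adjusted p 0.854) without knockdown library 2 and 0.37 (adjusted p 0.115) without knockdown library 1. Gene counts do not separate spliced from unspliced XBP1 mRNA.

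POU2AF1 and PRDM1 showed smaller differences. POU2AF1 (ENSG00000110777, chromosome 11, 111222977 to 111326355, minus strand) gave 334 and 349 CPM under the control shRNA, against 299 and 329 CPM under the other, with a log2 fold change of -0.12 (95% interval -0.34 to 0.10) and an adjusted p of 0.506 in edgeR. The groups did not overlap, though control library 1 and knockdown library 2 were close. PRDM1 (ENSG00000057657, chromosome 6, 106534195 to 106557814, plus strand) had 155 and 183 CPM in the 2 controls and 145 and 169 CPM in the knockdown libraries. Its groups overlapped: library 2 was above library 1 in both groups, with log2 ratios of 0.23 (control) and 0.22 (knockdown). The log2 fold change of PRDM1 was -0.10 (95% interval -0.36 to 0.15), with an adjusted p of 0.644 in edgeR, and its sign turned when control library 2 or knockdown library 1 was left out.

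In the cereblon axis, CRBN itself had the smallest fitted difference of the 8, but with terms for GC content and exonic length it was 0.17 on the log2 scale, and PRDM1 and POU2AF1 were both at -0.03. CRBN (ENSG00000113851, chromosome 3, 3190676 to 3221394, minus strand) measured 29.5 and 28.2 CPM with the control shRNA, as opposed to 30.9 and 30.2 CPM with the other. All 4 libraries lay close together, with the knockdown libraries just above. Its log2 fold change was 0.08 (95% interval -0.14 to 0.31), with an adjusted p of 0.666 in edgeR. CRBN shares 512 exonic bases with TRNT1 on the other strand, which had 703 to 807 fragments against 1328 to 1640 for CRBN, and counting without strand cannot tell reads of the shared bases apart.

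IKZF1 (ENSG00000185811, chromosome 7, 50343720 to 50472799, plus strand), which encodes Ikaros, was the gene with the lowest level, resting on 468 to 665 fragments a library. It gave 9.26 and 11.3 CPM under the control shRNA, against 12.8 and 12.3 CPM under the other, so the knockdown libraries were above both controls. The mean went from 10.3 ± 1.45 to 12.5 ± 0.373 CPM (SD, n = 2), with a log2 fold change of 0.28 (SE 0.140, 95% interval -0.03 to 0.60) and an adjusted p of 0.265 in edgeR. The log2 fold change of IKZF1 was 0.15 (adjusted p 0.594) without control library 1 and 0.43 (adjusted p 0.108) without control library 2, and 0.42 (adjusted p 0.0783) with terms for GC content and exonic length.

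IKZF3 (ENSG00000161405, chromosome 17, 37921198 to 38020441, minus strand), which encodes Aiolos, had the largest difference of the 8, and 1 library carried it. Its values were 139 and 261 CPM in control libraries 1 and 2 and 132 and 126 CPM in the knockdown libraries. Control library 1 lay near both knockdown libraries, and control library 2 stood alone above them. The means were 200.3 ± 86.2 and 129 ± 4.10 CPM (SD, n = 2), with a log2 fold change of -0.63 (SE 0.224, 95% interval -1.13 to -0.13) and an adjusted p of 0.135 in edgeR. Without control library 2 the log2 fold change was -0.11. IKZF3 was called without control library 1 (-1.01, adjusted p 3.89e-08), without knockdown library 1 (-0.66, adjusted p 0.00108), without knockdown library 2 (-0.61, adjusted p 0.0053) and with no filter on low counts (adjusted p 2.25e-07).

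The deposited gene model of IKZF3 lacks most of its last exon, though the part it holds runs past the stop codon. Its exonic length of 2778 bp is 27.8% of the 10008 bp of the gene in GENCODE 29, whereas the other 7 genes have 88.8% to 100% of theirs. In both models the last exon begins 97695 bp from the gene's start, but it is 1549 bp long in the deposited model and 8779 bp in GENCODE 29. Beyond a gap of 1108 bp the deposited annotation has an unnamed gene (ENSG00000264198, chromosome 17, 37913974 to 37920089, minus strand, GRCh37), a single block of 6116 bp whose distance from the start of IKZF3, 100352 to 106467 bp, falls within that last exon of GENCODE 29 and past its stop codon at 98398 bp. This identifier is absent from GENCODE 29. Most fragments of the locus were counted there: IKZF3 took 15.5% and 25.1% of the fragments of both in control libraries 1 and 2, and 16.7% and 15.3% in knockdown libraries 1 and 2.

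The unnamed gene had 760 and 781 CPM in the 2 controls and 658 and 699 CPM in the knockdown libraries, with a log2 fold change of -0.18 (95% interval -0.40 to 0.03) and an adjusted p of 0.296 in edgeR. Its control libraries were close to each other, so the high value of control library 2 was in the deposited IKZF3 model alone. Counted together, a sum chosen after the values were seen, both genes measured 900 and 1042 CPM with the control shRNA, as opposed to 791 and 826 CPM with the other. The groups did not overlap, and the log2 fold change of the sum was -0.26 (95% interval -0.50 to -0.03), with an adjusted p of 0.183 in edgeR and of 0.0769 to 0.563 with 1 library left out. Per exonic length the sum gave a control mean of 109.2 ± 11.3 FPKM (SD, n = 2) in place of 72.1, next to the 109.8 FPKM of IRF4. On that count the 2 genes did not differ beyond their spread in the control libraries. In knockdown libraries 1 and 2 the sum gave 88.9 and 92.8 FPKM, above the 79.5 and 89.1 FPKM of IRF4.

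**Figure D3:**
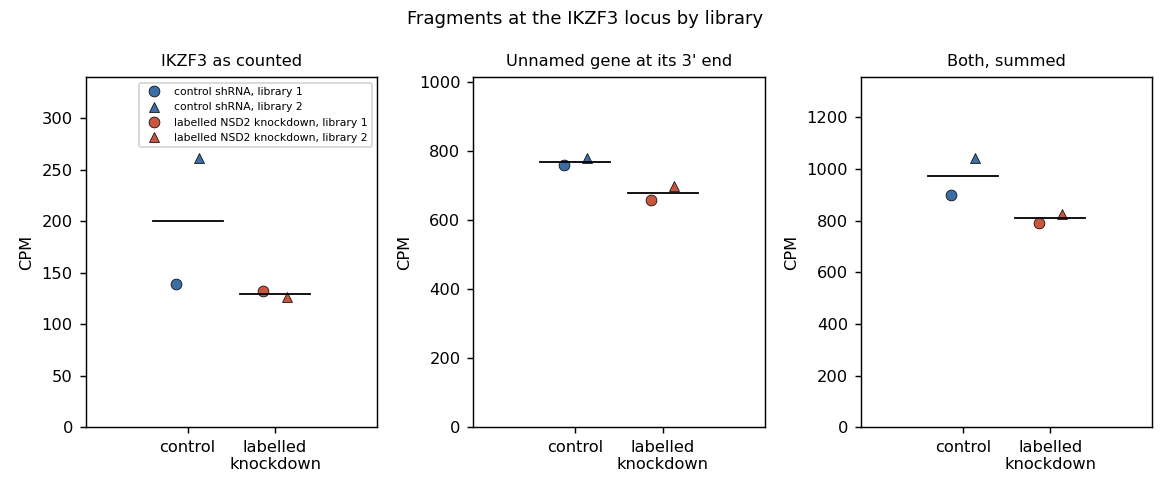
CPM by library for IKZF3 as deposited, for the unnamed gene at its 3′ end and for their sum, each axis starting at 0, with a bar at the mean of each group. Control library 2 stands at 261 CPM in the first panel, above the 126 to 139 CPM of the other libraries, and at 781 CPM in the second, beside 760 CPM for control library 1.

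Lists of partners and relatives of the 8 genes are read against all genes tested, of which 1.74% were higher and 4.19% lower past the threshold, and 9.46% and 13.1% at an unadjusted p below 0.05. Of 19 genes of the ligase that cereblon joins (the DDB1-CUL4 core, its conjugating and NEDD8 enzymes and the COP9 signalosome), 1 rose and 0 fell. That share of 5.26% rests on 1 gene, against 1.74% of all genes that were higher, and the median log2 fold change was 0.13. At an unadjusted p below 0.05, 5 of the 19 were higher and 0 lower. That gene was DDB1, the adaptor that holds cereblon to CUL4. It gave 394 and 469 CPM under the control shRNA, against 554 and 653 CPM under the other, with a log2 fold change of 0.48 (95% interval 0.21 to 0.75) and an adjusted p of 0.0478 in edgeR. The call of DDB1 was near the threshold: its adjusted p was 0.0650 to 0.0695 with upper-quartile or library-size scaling or a filter of 1 CPM, 0.0769 without control library 1 and 0.223 without knockdown library 2. CUL4A had 95.8 and 102 CPM in the 2 controls and 93.7 and 99.6 CPM in the knockdown libraries, so its groups overlapped. Of 17 other substrate receptors of that ligase, 1 rose and 0 fell (5.88%, again 1 gene, against the same 1.74%, median -0.04). It was DCAF6, with 113 and 119 CPM in the controls against 145 and 156 CPM in the other group. Its log2 fold change was 0.37, with an adjusted p of 0.0483 in edgeR. DCAF6 lost the call under the same 3 settings and without control library 1 or either knockdown library (up to 0.361). DDB1 and DCAF6 each share exonic bases with a gene on the other strand, TKFC and MPC2, so their counts are uncertain to that extent.

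Among 15 other proteins that cereblon degrades in the presence of thalidomide analogs, 14 were tested, 0 rose and 2 fell (14.3%, against 4.19% of all genes that were lower, median -0.0039). ZBTB39, a zinc finger factor, fell from means of 44.7 ± 0.249 to 31.0 ± 2.79 CPM (SD, n = 2), by a log2 fold change of -0.53 (95% interval -0.76 to -0.30, adjusted p 0.0162), and had an adjusted p of 0.0977 without knockdown library 2. SALL4, a stem cell zinc finger factor, fell by a log2 fold change of -1.34 (95% interval -1.99 to -0.69, adjusted p 0.0258), from 56 and 74 fragments in the control libraries to 25 and 29. At these low counts SALL4 lost the call with DESeq2 (0.0657) and without control library 2 (0.0797). No member passed among the 4 proteins that bind cereblon without a drug, the 3 other Ikaros family factors (median -0.25) and 13 subunits of NuRD, the chromatin complex that Ikaros factors join (median 0.05). At an unadjusted p below 0.05, these lists held 1 lower, 1 lower and 2 higher genes.

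Of the 2 octamer factors that POU2AF1 binds, POU2F2 (OCT2, the B lineage octamer factor) fell. It measured 24.6 and 29.1 CPM with the control shRNA, as opposed to 14.6 and 11.1 CPM with the other, means of 26.9 ± 3.12 and 12.8 ± 2.51 CPM (SD, n = 2). Both knockdown libraries were well below both controls, by a log2 fold change of -1.06 (95% interval -1.40 to -0.73) with an adjusted p of 0.00409 in edgeR. POU2F1, the widely expressed octamer factor, gave 40.9 and 52.4 CPM under the control shRNA, against 38.7 and 33.3 CPM under the other, with a log2 fold change of -0.37 and an adjusted p of 0.132. The log2 fold change of POU2AF1 itself was -0.12, beside the -1.06 of POU2F2. The difference between the 2 genes was not tested.

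Of 9 B cell and germinal centre factors that plasma cells switch off, several under the control of PRDM1, 8 were tested, 0 rose and 1 fell (12.5%, against 4.19% of all genes that were lower, median -0.12). CIITA, the activator of MHC class II genes and a known target of PRDM1, fell from 65.9 and 67.3 CPM in the control libraries to 39.5 and 26.2 CPM, by a log2 fold change of -1.02 (95% interval -1.38 to -0.66, adjusted p 0.00677). Its 2 groups were far apart, and knockdown library 2 was the lower of its group. CIITA shares exonic bases with DEXI on the other strand. PAX5, the factor of B cell identity, was at 0.31 to 0.44 CPM. Of 9 corepressors of PRDM1 (median 0.09), and of 10 tested of 12 other interferon regulatory factors and DNA partners of IRF4 (median -0.04), none passed. At an unadjusted p below 0.05 they held 1 higher and 1 lower, and 1 lower. That last gene was IRF8, a B cell relative of IRF4, with 10.3 and 10.6 CPM in the controls and 7.51 and 7.61 CPM in the others (adjusted p 0.0721).

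The IRE1-XBP1 branch, with the splicing enzyme, the RNA ligase and target genes of secretion and folding, had 31 tested genes. Of these, 1 rose and 0 fell (3.23%, against 1.74% of all genes that were higher). Their median log2 fold change was -0.06, beside 0.25 for XBP1. RTCB, the ligase that rejoins the spliced XBP1 mRNA, rose from 203 and 220 CPM in the control libraries to 276 and 311 CPM, by a log2 fold change of 0.47 (95% interval 0.25 to 0.70, adjusted p 0.0248), and had an adjusted p of 0.164 without knockdown library 2. ERN1, which encodes IRE1, had 79.3 and 88.9 CPM in the 2 controls and 67.6 and 55.3 CPM in the knockdown libraries, with a log2 fold change of -0.45 and an adjusted p of 0.0525. The 3 genes whose promoter windows hold the same element as that of XBP1 had log2 fold changes of 0.06 (HSPA5), -0.06 (PDIA6) and 0.18 (CRELD2), with adjusted p of 0.765, 0.734 and 0.412. At an unadjusted p below 0.05, the branch held 5 higher and 5 lower genes of 31, against 9.46% and 13.1% of all genes.

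Of 14 ELL relatives and members of the super elongation complex, 12 were tested and none passed (median -0.10, 2 lower at an unadjusted p below 0.05). ELL3 had 0 fragments in each library, which allows up to 3 in counting error alone. Of 13 other factors of plasma cells and their precursors, 0 rose and 1 fell (7.69%, against 4.19% of all genes that were lower, median -0.03). CREB3L2, a transmembrane factor of the secretory pathway, fell from 160 and 155 CPM in the control libraries to 117 and 95.2 CPM, by a log2 fold change of -0.57 (95% interval -0.82 to -0.32, adjusted p 0.0164), and had an adjusted p of 0.0855 without knockdown library 2. MYC, which IRF4 is known to activate in myeloma cells, had a log2 fold change of -0.03 with an adjusted p of 0.90.

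**Figure D4:**
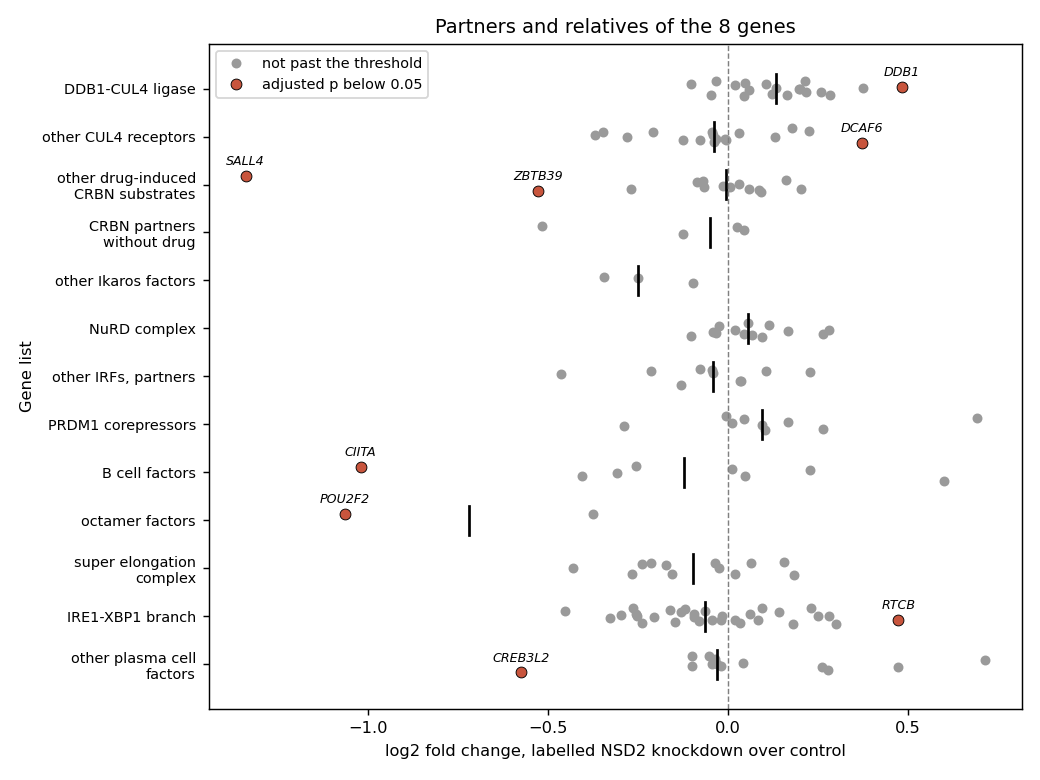
The log2 fold change of each tested gene of 13 lists, labelled knockdown over control, with a bar at the median of each list and the genes past the threshold in red. DDB1, DCAF6 and RTCB lie above 0 and SALL4, ZBTB39, CIITA, POU2F2 and CREB3L2 below, while the medians of all lists but that of the 2 octamer factors (-0.72) lie between -0.25 and 0.13.

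The authors' deposited table of a DESeq2 comparison gives the same signs for all 8 genes as the values above. In the authors' deposited table the log2 fold changes were -0.36 for IRF4, -0.33 for ELL2, -0.59 for IKZF3, 0.27 for XBP1 and 0.30 for IKZF1, and no gene of the 8 had an adjusted p below 0.576, the value of ELL2. Its base mean for IKZF1 was 4112 in the authors' deposited table, 6.18 times the highest count of IKZF1 in these libraries (665), whereas that for IKZF3 was 4427, below every count of IKZF3 here. The libraries behind the authors' deposited table are not stated.

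Profiles most like each gene over the 4 libraries, by Euclidean distance between centred log2 CPM among 9910 protein-coding genes with at least 5 CPM, were those of BAG6 and VAMP3 for CRBN, TMEM19 and TUBB2B for XBP1, and CTC1 and TIMP1 for IRF4. They were PDE12 and SH2D3A for POU2AF1, TTC14 and TXNDC11 for PRDM1, LRIG3 and ATP11B for ELL2, and FAM227A and C19orf44 for IKZF1. CRBN had 1090 genes within a distance of 0.1 and IKZF3 had 0, its nearest being PCDH1 at 0.167 and PHC3 at 0.202. With 4 libraries such likeness is common: IRF4 had 26 genes within that distance and POU2AF1 had 264.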

How the data were processed

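Each library's deposited file holds raw counts of fragments for Ensembl genes. Per the submitters' processing notes, the authors used Trim Galore 0.3.7, STAR 2.5.3, Picard, featureCounts of Subread 1.4.6 and DESeq2 with GRCh37. Per the file headers, counting ignored strand and took paired fragments from alignments named as free of duplicates. The authors' deposited DESeq2 table holds a base mean (a signal), a log2 fold change, a Wald score, a p-value and exonic lengths; its symbols and coordinates were used, and 4 count columns were not. The blank line in each count file was dropped.

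Group differences were tested with edgeR 4.0.16 in R 4.3.3 (quasi-likelihood F test, TMM scaling, default filter, group as the only term), adjusted by Benjamini and Hochberg over 17172 genes. The coefficient of biological variation was 9.81%. The SE was taken from the log2 fold change and its F value, and intervals rest on the model. FPKM is CPM per kilobase of deposited exonic length. Alternatives were other scalings and filters, DESeq2 1.42.0, limma-voom 3.58.1, robust estimation, a replicate block, GC and length terms and leaving out each library; the procedure was tested on simulated data. The sum of IKZF3 with its neighbour was added after the data were seen. Named genes were the 8, NSD2, up to 3 genes per direction past the threshold in each list, and the 2 nearest profiles per gene; other genes were chosen after their values were seen. The 8 genes and the lists were chosen with earlier results of these data known. Promoter windows came from RefSeq and were matched by symbol for 5 of 8 genes. Figures were drawn with matplotlib 3.10.9.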

Additional observations from a re-analysis of the deposited data

How the results depend on the processing

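With 2 libraries a group, these results rest on few degrees of freedom, and a fit without 1 library assumes that the lone library of its group varies like the others. The 299 higher and 719 lower genes of 17172 tested became 658 and 1490 of 31645 tested with no filter on low counts. More genes were tested in that fit, and its p-values leave out a gene's own spread. The SE of IKZF3, for instance, was 0.106 there and 0.224 with the filter. Leaving out each library in turn gave 173 to 682 higher and 649 to 1342 lower genes. Of the 8 genes, 0 were called higher in each of those 4 fits and 0 to 3 lower (3 when control library 1 was dropped, 0 when control library 2 was, and 1 for each knockdown library). No filter called 3 of them lower and DESeq2 called 2. Without knockdown library 1 or 2 the SE of IKZF3 was 0.157 and 0.158, below that of the main fit, although both control libraries stayed in. Its calls in those fits thus also leave out its own spread. For PRDM1 the log2 fold change ranged from -0.22 to 0.011 over those fits and turned its sign in 2 of them, to 0.011 (control library 2 left out) and 0.0054 (knockdown library 1 left out). The other settings without the block (RLE, upper-quartile and library-size scaling, a filter of 1 CPM, limma-voom, robust estimation, and GC and length terms) called none of the 8. The cause of these changes was not tested.

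The labels share replicate numbers but do not say that these pair the libraries. The difference of number 2 minus number 1 had a correlation of 0.439 between the groups, across 9911 genes, which are not independent. With the replicate block, 1327 genes were higher and 1992 lower, 19.3% of those tested, and 3 of the 8 were lower: IRF4 (adjusted p 0.0044), ELL2 (0.0055) and IKZF3 (0.0039). NSD2 was also lower with the block (-0.32, adjusted p 0.0197), but at -0.08 (adjusted p 0.501) with GC and length terms beside it. With GC content and length terms added to the block, 2111 of the 16533 genes tested were higher and 1837 lower. Of the 8, XBP1 (adjusted p 0.0371) and IKZF1 (adjusted p 0.0111) were then higher in edgeR, 2 in all, and 3 lower.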
